A study of Mus musculus with 2 samples.

Results

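The genes described here are 10 lymphoid transcription factors: the Ikaros family (Ikzf1, Ikzf2 and Ikzf3), the E proteins Tcf3 and Tcf4, the B lineage factors Ebf1 and Pax5, the T lineage factors Tcf7 and Lef1, and Ets1. They were measured in haematopoietic stem cells of Wip1 knockout mice and of wild-type mice, both aged 3 months, with 1 Affymetrix expression array of total RNA per genotype. Every probe set annotated to 1 of these genes alone was taken, which gave 30 probe sets of 9 genes among 45037 probe sets and 18193 named genes. No probe set carried Tcf7 as its only symbol, so Tcf7 was not analysed here. Wip1, the phosphatase encoded by Ppm1d, is known to restrain p53 and DNA damage signalling. The comparison asks whether the factors that set up lymphoid fate differed in level between the stem cell samples. The labels name neither the sort, the number or sex of the animals, nor the design of the knockout allele.

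Lymphoid fate is set up in steps. Ikaros and the E protein E2A, the product of Tcf3, are already active in multipotent progenitors, where they open lymphoid genes before commitment. E2A acts with Ebf1 to start the B cell programme, and Pax5 then fixes it. Tcf7 and Lef1 work downstream of Notch and Wnt signals in the T lineage, and Ets1 serves both lineages and natural killer cells.

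Of the factors known from early progenitors and of both lineages, Ikzf1, Ikzf2, Tcf4 and Ets1 were higher in the knockout sample and Tcf3 was close to level. Ebf1 was dim and exceeded the floor of detection in the knockout alone. By their brightest probe sets, Ets1 was 1.62-fold higher, Tcf4 1.45-fold, Ikzf1 1.33-fold, Ikzf2 1.20-fold and Tcf3 1.10-fold. No full order is drawn, since Ebf1 has only a bound (0.36 on the log2 scale, or 0.64 with no floor) and the median over probe sets puts Ikzf2 (0.44) above Ikzf1 (0.23). Pax5 and Lef1 each held exactly the same value in both samples in their only detected probe set. Ikzf3 lay under the floor in both. No detected probe set of a factor differed by as much as 2-fold.

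With 1 array per genotype there is no replicate and no test, and the arrays' number limits the precision. A difference between these samples cannot be told apart from a difference between any other 2 preparations of stem cells. The text gives deposited intensities, which are linear, and log2 differences, knockout minus wild type, after the arrays were centred on each other. A probe set counted as detected where the knockout or the wild type exceeded its floor, the median of all probe sets on that array (an intensity of 25.9 for the knockout array and 25.2 for the wild-type array). Where the wild type lay under the floor it was set to the floor, so the difference is a lower bound. The one measure of error that the values allow is how far probe sets for the same gene disagree, an SD of 0.21 on the log2 scale over 4761 genes, and it includes no spread between animals or arrays. In bulk samples, fewer cells of a type and less RNA per cell cannot be told apart.

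The 2 probe sets of the targeted gene, Ppm1d, differed by -0.05 and 0.10, and their position relative to the deleted part is unknown here. The samples also differed in transcripts that depend on sex: the brightest probe set of Xist, from the silenced X chromosome, read 3778 in the knockout against 6228 in the wild type, and the Y-linked Eif2s3y read 149 against 31.8. Whether sex had a part in the differences below was not tested. Of the stem cell markers Procr, Mecom, Kit, Fgd5, Hlf, Slamf1 and Tek, every one was above the floor in both samples. Hlf was 1.63-fold higher in the knockout, and Slamf1 (-0.66, but -0.29 by the median over probe sets) and Tek (-0.59) were lower. Hoxb5, also on that list, was under the floor in the knockout.

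**Figure D1:**
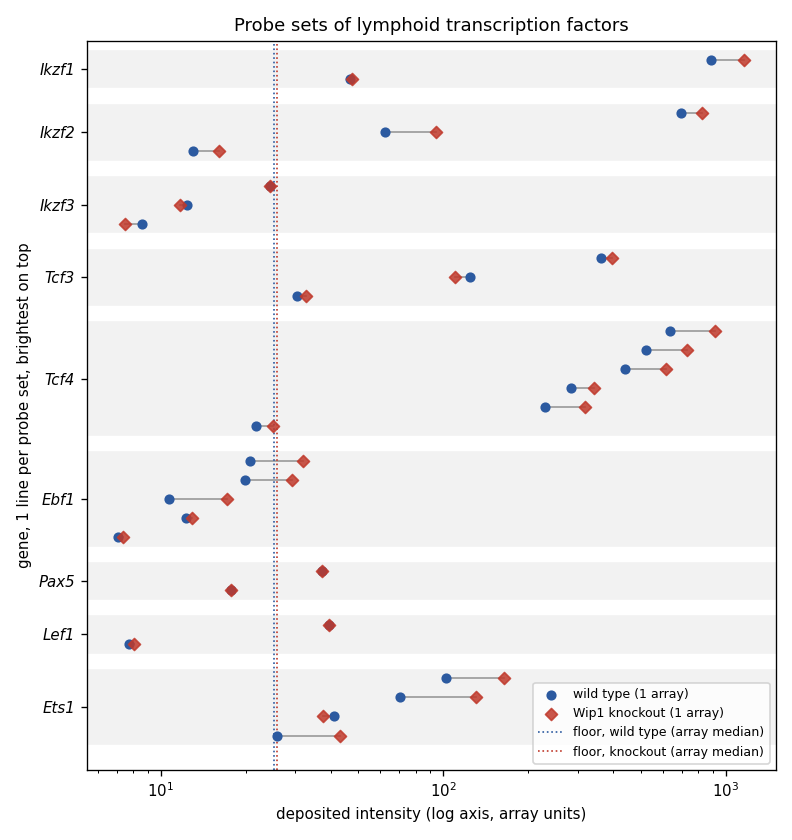
Deposited intensity (log axis, array units) of each of the 30 probe sets of the 9 measured factors, with 1 point for the wild-type array and 1 for the knockout array and dotted lines at each array's floor. Tcf4 lies to the right in the knockout in all of its probe sets, whereas both Pax5 probe sets fall on the same value in the 2 samples.

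Of the 30 probe sets, 20 were detected, 18 of them above the floor in both samples. Among those 20, 16 were higher in the knockout, 2 were lower and 2 had the same value on both arrays. The 2 Ebf1 probe sets among the 16 passed only through the knockout and had to come out higher. Of the 18 above both floors, 14 were higher. Over all 19906 detected probe sets with 1 gene, 48.0% were higher and 2.58% were equal. A difference of at least 1.5-fold upward was seen in 4 of the 20 member probe sets, against 3.06% of all detected probe sets, and in none downward, against 1.46%. At 2-fold the members gave 0, where the rate over all detected probe sets, either way, was 0.728%. The 4 belonged to 2 genes, 3 to Ets1 and 1 to Ikzf2, and probe sets of one gene are not independent. By the brightest probe set of each gene, 6 of the 8 detected factors were higher, 2 were equal and none was lower, with a median difference of 0.31 and a range from 0.01 to 0.70. The median over all 11440 detected genes was 0.00015, with a 5th percentile of -0.38 and a 95th of 0.43. Ebf1, counted among the 6, passed the filter only through the knockout, where it was high, so it had to come out higher. Without it the median of the factors was 0.26.

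**Figure D2:**
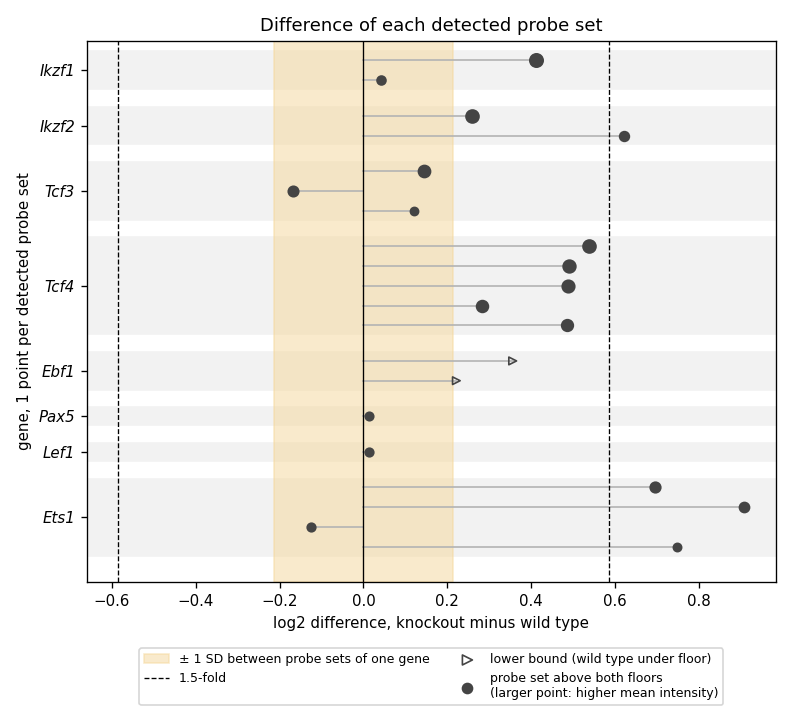
Log2 difference, knockout minus wild type, of each of the 20 detected probe sets, grouped by gene, with the band of 1 SD between probe sets of one gene (0.21) and dashed lines at 1.5-fold. Open triangles are lower bounds. All 5 detected Tcf4 probe sets lie to the right of the band and below the 1.5-fold line, and 3 of the 4 Ets1 probe sets lie past it.

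The Ikaros family encodes zinc finger proteins that recruit chromatin remodelling complexes. Ikzf1, which encodes Ikaros itself, read 1166 in the knockout against 885 in the wild type in its brighter probe set, a log2 difference of 0.41. Its other probe set read 47.7 against 46.7 (0.04). The brighter probe set therefore differed by more than the SD between probe sets and the dimmer one did not. Among all detected genes, 5.48% were higher by at least as much as Ikzf1.

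Ikzf2 encodes Helios, an Ikaros relative of stem cells and regulatory T cells. It was bright in both samples (826 against 697, a difference of 0.26), and its second probe set read 94.6 against 62.1 (0.62, or 1.54-fold). The third lay under both floors (16.0 and 13.1). Both detected probe sets were higher in the knockout, and the sizes differed by more than the SD. Among all detected genes, 13.5% were higher by at least as much as Ikzf2 in its brightest probe set. Ikzf3, which encodes Aiolos, a factor of more mature lymphocytes, was under the floor in both samples in each of its 3 probe sets. Their intensities ran from 7.48 to 24.4 in the knockout and from 8.57 to 24.4 in the wild type, and no difference is given.

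E proteins are basic helix-loop-helix factors that bind the E box as dimers and are held back by Id proteins. Tcf4, which encodes E2-2, a factor known for its role in plasmacytoid dendritic cells, was higher in the knockout in every detected probe set. The brightest read 914 against 635 (0.54). The next read 730 against 524 (0.49) and 613 against 442 (0.49). These 3 differences were of nearly the same size. The dimmest detected pair read 341 against 283 (0.28) and 319 against 230 (0.48). The knockout was above the wild type in each of the 5 probe sets, although the 341 and 730 readings come from probe sets designed on one source sequence. Whether the 914 and 613 readings also share a source was not determined here. The sixth probe set lay under both floors, at 24.9 and 21.7. Among all detected genes, 2.84% were higher by at least as much as Tcf4.

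Tcf3 was close to level. Its brightest probe set read 396 in the knockout against 362 in the wild type (0.14), the second 110 against 125 (-0.17) and the third 32.8 against 30.4 (0.12). The 3 differences went both ways and each was smaller than the SD between probe sets. The dimmer pair share a source sequence.

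Because Tcf4 is a factor of plasmacytoid dendritic cells, markers of these cells were set beside it. Of the 5 markers 4 were detected, and the summed intensity of the brightest probe sets of all 5 was 372 in the knockout and 240 in the wild type. Ccr9, a chemokine receptor, was at least 3.03-fold higher and Cox6a2, a respiratory chain subunit, 2.33-fold higher in the knockout by the brightest probe set of each. Ly6d differed by 0.52 and Klk1 by -0.31. When floored at the 75th percentile Cox6a2 differed by 0.33 only, and with the floor added as an offset Ccr9 differed by 1.03. The other detected probe set of Ccr9 was higher by at least 0.48, and the wild type lay under the floor in both. The defining receptor gene Siglech lay under the floor in both samples (21.9 against 18.3). The part of such cells in the Tcf4 difference was not tested.

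Ebf1 was dim in both samples. Its brightest probe set read 32.0 in the knockout against 20.7 in the wild type, and the next 29.2 against 19.9, so both wild-type values lay under the floor. The differences were therefore at least 0.36 and 0.22. The other 3 probe sets were under both floors, from 7.37 to 17.2 in the knockout and from 7.07 to 12.3 in the wild type. All 5 readings were higher in the knockout, but 3 of the 5 probe sets, the detected pair included, share a source sequence and none was above the floor in the wild type. With no floor the brightest differed by 0.64, so the size depends on how the dim wild-type value is treated.

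Pax5 read 37.2 on both arrays in one probe set and 17.8 on both in the other. The detected probe set of Lef1 read 39.4 on both arrays, and the other lay under both floors at 8.05 and 7.71. The log2 difference of 0.01 for these equal values comes from the centring alone. Exactly equal values were found in 5.63% of all probe sets and in 4 of the 30 member probe sets: both of Pax5, 1 of Lef1 and 1 of Ikzf3. Of all probe sets with equal values, 75.7% were under the floor on both arrays. No label says how equal values arose, so they are reported as no measured difference rather than as evidence of an unchanged level.

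Sequence upstream of the start is shown for the factors whose RefSeq window lies at the outermost start of the gene. These were Ebf1, detected in the knockout alone, and Pax5 and Lef1, with equal values on both arrays. No contrast between these factors is drawn from the sequences. Dntt, the brightest of the B lineage targets more than 2-fold higher, is also shown. RefSeq windows (build GRCm38.p6) were matched for 6 of the 10 factors. Each line gives the 250 bases before the start, 5′ to 3′ on the strand of the gene, and capitals mark an E box, the letters CANNTG that E proteins bind.
Ebf1, chr11:44617850-44618099, plus strand: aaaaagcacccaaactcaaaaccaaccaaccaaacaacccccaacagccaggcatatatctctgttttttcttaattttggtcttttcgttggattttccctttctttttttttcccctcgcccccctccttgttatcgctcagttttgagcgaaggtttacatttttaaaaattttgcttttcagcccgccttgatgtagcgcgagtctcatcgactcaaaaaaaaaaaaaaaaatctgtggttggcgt
Pax5, chr4:44710695-44710944, minus strand: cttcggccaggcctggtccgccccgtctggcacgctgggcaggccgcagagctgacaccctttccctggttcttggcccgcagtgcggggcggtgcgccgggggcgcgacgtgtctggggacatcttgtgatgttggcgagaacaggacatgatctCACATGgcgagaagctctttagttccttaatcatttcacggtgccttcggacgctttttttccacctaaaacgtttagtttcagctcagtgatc
Lef1, chr3:131110047-131110296, plus strand: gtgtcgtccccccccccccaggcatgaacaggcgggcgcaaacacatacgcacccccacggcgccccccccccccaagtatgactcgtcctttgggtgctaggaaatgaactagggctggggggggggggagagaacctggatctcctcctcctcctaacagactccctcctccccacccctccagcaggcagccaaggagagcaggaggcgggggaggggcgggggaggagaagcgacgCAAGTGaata
Dntt, chr19:41029025-41029274, plus strand: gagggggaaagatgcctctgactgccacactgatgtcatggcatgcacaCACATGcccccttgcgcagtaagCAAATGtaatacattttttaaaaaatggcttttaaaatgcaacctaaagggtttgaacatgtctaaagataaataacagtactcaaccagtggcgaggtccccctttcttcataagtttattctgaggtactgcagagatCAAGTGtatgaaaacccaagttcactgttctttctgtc

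The E box was found 3 times upstream of Dntt, once each upstream of Pax5 and Lef1, and not upstream of Ebf1. It reads as an E box on both strands, and 66.2% of 32841 windows of the same length held at least 1. The Ikaros letters TGGGAA (in 21.6% of windows), the TCF and LEF letters CTTTGA (13.8%) and the Ets letters CCGGAA (12.0%), searched on both strands, were in none of the 4. A match is a description of the letters and not a measured binding site.

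Ets1, the founding member of the Ets family, was higher in 3 of its 4 probe sets. The brightest read 164 in the knockout against 102 in the wild type (0.70), the second 130 against 70.1 (0.91) and the third 43.1 against 25.9 (0.75), the last just above the floor. The fourth read 37.4 against 41.2 (-0.12). The first 3 were past 1.5-fold and the fourth was within the SD of no difference. The brightest pair share a source sequence, and so do the dimmer pair, which differed in opposite directions. Among all detected genes, 1.40% were higher by at least as much as Ets1.

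**Figure D3:**
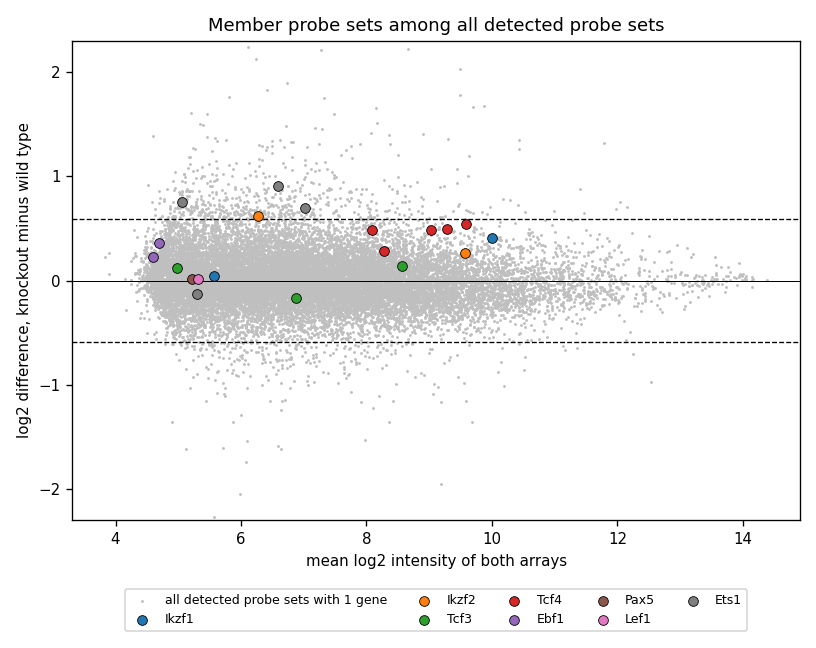
Log2 difference, knockout minus wild type, against the mean log2 intensity of both arrays for all 19906 detected probe sets with 1 gene (grey) and for the detected probe sets of the factors (coloured by gene), with dashed lines at 1.5-fold; 2 grey points lie outside the vertical axis. The Tcf4 probe sets and the brighter Ikzf1 probe set sit at high intensity in the upper part of the cloud, and Ebf1, Pax5 and Lef1 sit at its dim edge.

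The closest relatives of the factors went both ways. Of 11 related genes, 6 were detected, with 2 higher, 3 lower and 1 equal, none past 1.5-fold and a median of -0.05. The third E protein gene, Tcf12, read 805 on both arrays in its brightest probe set, and its 4 probe sets reached up to 0.40. Tcf7l2, a Wnt effector of the same family as Tcf7, differed by 0.36, the Ets gene Ets2 by -0.30 and the Ikaros relative Ikzf4 by -0.22. Ebf2, Ebf3 and Ebf4 were under the floor in both samples.

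Genes of proteins that bind and control E proteins were measured in both directions. Of 11 listed, 10 were detected, 7 of them higher, where 47.7% of all detected genes were, and 3 lower, with a median of 0.23. One was at least 1.5-fold higher, where 2.3% of all detected genes were. This was Id1, an inhibitor of E proteins, which read 401 in the knockout against 255 in the wild type (0.67). Its relative Id3 went the other way, with 203 against 283 (-0.47). Id2 also differed downward (-0.29) and Id4 upward (0.31), so the Id genes did not move as a group. Cbfa2t3, a corepressor gene, differed by 0.34 in its brightest probe set, and its 4 probe sets ranged from -0.22 to 0.43.

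The chromatin cofactors of Ikaros were near level. All 15 were detected, with 8 higher, 7 lower and a median of 0.06. Chd3, a remodelling helicase gene of the NuRD complex, read 339 against 224 (0.61, but 0.56 with the floor added as an offset, which is under 1.5-fold) and was the one of the 15 past 1.5-fold higher, where 2.3% of all detected genes were. The NuRD subunit gene Mta3 differed by 0.53 and Mbd3 by -0.18. The other NuRD helicase gene, Chd4, differed by 0.09. Partners of TCF and LEF factors gave 5 higher and 5 lower of 10 detected, with a median of 0.02. The corepressor gene Tle2 read 130 against 79.9 (0.71, but 0.27 when floored at the 75th percentile), its relative Tle1 differed by -0.36 and the coactivator gene Bcl9l by 0.37. Beta-catenin (Ctnnb1) differed by -0.22.

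Among known B lineage targets of these factors, Dntt, Il7r and Blnk were more than 2-fold higher in the knockout. Of 18 listed, 13 were detected. Bank1, Rag1 and Pou2af1 passed only through the knockout and had to come out higher, and Cd22 passed only through the wild type and had to come out lower. The other 9 were above the floor in both samples and higher in the knockout, with a median of 0.45, where 5192 of all 10957 genes above both floors were higher. Blk, Rag2, Fcrla and Cr2 were under both floors. Of the 13, 3 were past 2-fold higher, where 0.455% of all detected genes were, and none was lower by 1.5-fold, where 1.55% of all detected genes were. The list was put together with earlier results of these data known, so its direction is not independent evidence. Dntt, the terminal transferase that adds bases at immunoglobulin joints, read 5492 in the knockout against 2228 in the wild type (1.31). Il7r, the interleukin-7 receptor, read 175 against 70.3 (1.33, but 0.69 when floored at the 75th percentile, which ends its 2-fold call). Blnk, an adaptor of the pre-B cell receptor, read 237 against 109 (1.14, or 0.98 with the floor added as an offset, which likewise ends the call). At the floor used here all 3 differences were larger than that of any factor. Vpreb1 and Igll1, which encode the surrogate light chain and are targets of E2A and Ebf1, differed by 0.51 and 0.45. Cd79a, a target of Ebf1 and Pax5, read 46.0 against 38.6 (0.27).

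Targets in the T lineage were mostly dim. Of 16 listed, 7 were detected, none past 1.5-fold. Of these 5 were above the floor in both samples, with 2 higher, 3 lower and a median of -0.03. Bcl11b, a target of Tcf7, read 30.0 in the knockout and lay under the floor in the wild type (at least 0.26). Cd6 was also under the floor in the wild type (at least 0.24), and Cd3e differed by -0.21.

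Other regulators of lymphoid development were higher more often than lower, with 11 of 15 detected genes higher, against 47.7% of all detected genes, 4 lower and a median of 0.12. There were 3 past 1.5-fold upward, where 2.3% of all detected genes were, and 1 downward, where 1.55% were. Satb1, a chromatin organiser of lymphoid progenitors, read 1099 against 555, and its 4 detected probe sets ranged from 0.48 to 1.36. Notch1, the receptor that starts the T lineage, read 816 against 441 (0.90), with 0.94 in its other probe set. Irf8, a factor of dendritic and B cells, differed by 0.77. Zbtb16, a factor of innate lymphocytes, was the one past 1.5-fold lower (-0.66). Gata3 (-0.47), Runx3 (-0.18) and Nfil3 (-0.03) were lower by less.

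**Figure D4:**
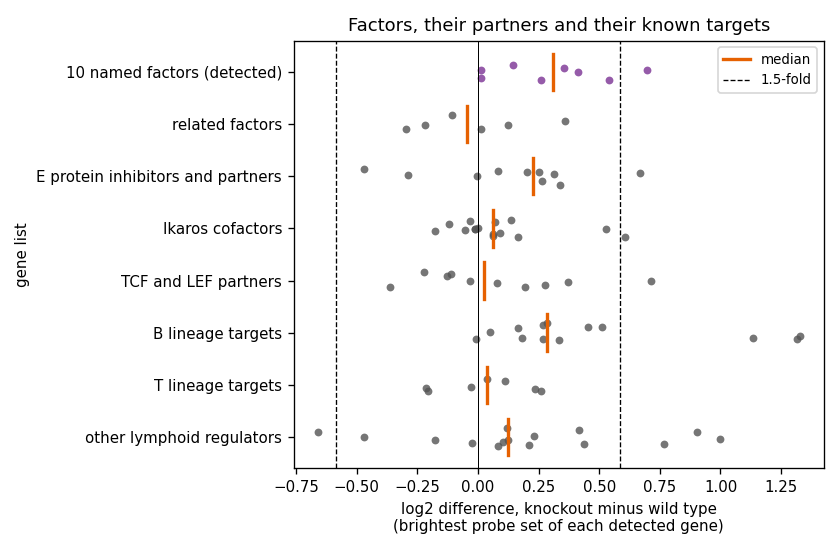
Log2 difference, knockout minus wild type, of the brightest probe set of each detected gene, for the factors and for 7 lists of relatives, partners, targets and other regulators, with the median of each list (orange) and dashed lines at 1.5-fold. Lower bounds are drawn at their value. The factors' median is 0.31, and among the B lineage targets Dntt, Il7r and Blnk lie on the far right.

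Markers of mature B and T cells were mostly dim in both samples. Of 8 mature B cell markers 6 were on the array and 3 were detected, and the summed intensity of those 6 was 259 in the knockout and 237 in the wild type. Cd79b, the brightest, carried that sum and read 173.4 against 145.5 (0.27). Ms4a1, which encodes CD20, read 29.7 against 30.6, and Cr2, Fcer2a and Fcmr were under the floor in both. Of 8 T cell markers 4 were detected, with a summed intensity over all 8 of 211 against 230, and Cd3d and Cd3g were under the floor in both. Of 6 natural killer cell markers on the array 3 were detected, with a median difference of 0.33. Nkg7 read 668 against 835 and carried the sum over all 6 (864 against 992), while Klrd1 (0.52) and Prf1 (0.33) were higher in the knockout. Of 5 monocyte and macrophage markers on the array 4 were detected, with 2 higher and 2 lower in the knockout. Csf1r was 2.64-fold higher by its brightest probe set (its 3 probe sets ranged from 0.35 to 1.40) and Itgam 1.54-fold higher. Lyz2, the brightest, read 1139 against 1151, and Cd14 differed by -0.04. The sum over all 5 was 2015 against 1533, with Csf1r at 770 against 294. Neutrophil markers were lower in 7 of 8, where 5716 of all 11440 detected genes were lower, and summed to 12147 against 14774. Their median of -0.17 was smaller in size than the SD between probe sets. The 7 ran from -0.03 (S100a8) to -0.57 (Mpo). All 5 detected megakaryocyte markers were lower, from -0.10 (Gp9) to -0.77 (Pf4), with a sum over 6 of 585 against 822. Of 5 erythroid markers on the array 4 were detected, with sums of 199 against 205. The part of these cells in the differences above was not tested. As a guide to the floor, 4 of 15 genes of other tissues were above it. In the wild type Prm1 read 57.5, Ins2 46.8 and Apoa1 37.1, all above the floor, and Apoa1 differed by -0.46.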

How the data were processed

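The values deposited by the authors are linear intensities, 1 for each probe set on each array; MAS5 is the only program named, without a version, per the submitters' processing notes. Besides equal values, 774 probe sets differed between arrays by a whole number other than 0 (within 1e-06), among them 1 of Tcf4 (58), so the method behind the values is not settled. Probe sets were named through the platform annotation and gene identifiers of assembly GRCm38.p6. Intensities were converted to log2, centred on the median difference of detected probe sets with 1 gene (a shift of -0.01), and floored at each array's median. Each gene was represented by its brightest probe set, and 1.5-fold and 2-fold were the sizes counted. No test was possible with 1 array per genotype. The genes named were the factors, the 3 members of each list that differed most, and cell type markers past 1.5-fold; others, such as Cd79a, Chd4, Ctnnb1, Id2, Id4, Tcf12, Vpreb1, Igll1 and further marker genes, were picked with values in view. The members and lists were chosen with earlier results of these data known. The steps were checked on simulated arrays in which bright genes alone were changed, by 2-fold or more. That check does not cover changes in dim genes or changes under 2-fold. Alternatives covered centring, normalization, the floor, an offset, the probe set chosen and its class, the fold size and, chosen after seeing the data, equal values left out. Python 3.11.15, pandas 2.3.3 and statsmodels 0.14.6 were used.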

Additional observations from a re-analysis of the deposited data

How the results depend on the processing

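The count of 4 member probe sets at least 1.5-fold higher became 1 with a floor at the 75th percentile, which left 11 of them detected, and 2 either with the floor added as an offset or without the probe set classes _s_at, _x_at and _a_at, which also left fewer to count. It was 5 with no floor and 6 with a floor at the 25th percentile, which detected 27 member probe sets. At 2-fold it was 0. The count of genes on the 7 lists past 1.5-fold was 10, with 12 and 13 under those lower floors. It was 8 with the floor at the 75th percentile, 7 with the offset, 8 without those probe set classes and 3 at 2-fold. The median over detected factors stayed above 0 in each of 10 alternatives, from 0.25 to 0.43. The median of the B lineage targets ran from 0.27 to 0.53, the highest with a floor at the 75th percentile, under which fewer targets were detected. The medians of the Ikaros cofactors (-0.01 to 0.09), the TCF and LEF partners (-0.01 to 0.10) and the related factors (-0.09 to 0.01) crossed 0. Ikzf1, Ikzf2, Tcf3, Tcf4 and Ets1 were higher in every alternative, whereas Pax5 and Lef1, with equal deposited values, went to either side of 0. Ebf1 was also higher wherever it was measured. It passed the median floor only through the knockout, so under that floor the filter fixed its direction. A floor at the 75th percentile left Ebf1 undetected. Without a floor Ebf1 differed by 0.64, and Ets1 by 0.91 without the classes named above. No paired analysis was possible because each genotype has 1 array. Dim probe sets, among them those of Ebf1, Pax5, Lef1 and Ikzf3, limit what can be said of these genes.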
